A study of Triticum aestivum with 4 samples.

Results

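The wheat genes CAT1, a catalase, and PER1 (listed as LOC543108), a 1-Cys peroxiredoxin, were followed in developing seed of 2 genotypes. The genes were chosen by the symbols that the array's annotation gives them, and they are 2 of the 771 genes it lists. They are read by 4 probe sets, 2 for each gene, out of 61179 tested, with no filter on low values. For each gene, the annotation gives 1 probe set a sequence accession with the prefix CA, taken here as an expressed sequence tag (EST), a single-pass read of a cDNA. The accession of the other has another prefix and is taken as a sequence record. These probe sets are called the EST and the record probe set. A further probe set carries no listed gene but shares its transcript cluster, the first part of its name, with the PER1 EST probe set, and is given separately.

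Bread wheat (Triticum aestivum) was grown in the field in a lattice with 3 replications, and RL4452 and Domain are the parental lines of the doubled-haploid population grown beside them. Whole seed was frozen 5 days after anthesis, and the labels name no treatment. Messenger RNA was labelled with biotin and hybridised to 4 Affymetrix wheat arrays, numbered replicates 1 and 3 of RL4452 and replicates 1 and 3 of Domain. The labels call these biological replicates and give all of them the location SB. They do not say which plants or field rows the samples came from, so p-values measure the spread between these samples alone.

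Catalase turns hydrogen peroxide into water and oxygen without a reductant and works mainly in peroxisomes. Peroxiredoxins reduce peroxides through a reactive cysteine, and the 1-Cys type holds a single one in its active site. In barley, PER1 is known from the embryo and the aleurone, the outer endosperm layer, and has been linked to seed dormancy. Bread wheat is hexaploid, so most of its genes exist as similar copies on the A, B and D genomes.

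Each value is the log2 of a probe set's ratio to its median across the 4 arrays. A value of 0 is thus that median, a value of -1 is 2-fold below it, and levels cannot be compared between probe sets. The ratios also hold no absolute level, so the labelled tissue could not be checked against its defining markers. The SD of log2 differences over all probe sets was 0.499 between the RL4452 arrays, 0.457 between the Domain arrays and 0.509 to 0.618 between arrays of different genotype. In limma, 171 probe sets had a Benjamini-Hochberg adjusted p under 0.05, 79 higher and 92 lower in RL4452. The smallest called difference was 3.66-fold. The count was 0 with either Domain array left out (3292 and 3418 at an unadjusted p under 0.05), and 101 with RL4452 replicate 1 left out.

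None of the 4 CAT1 and PER1 probe sets was called. Among all tested probe sets 0.28% were called, 0.129% higher and 0.15% lower in RL4452. At an unadjusted p under 0.05 limma had 1 of the 4, the CAT1 record probe set, against 5.85% of all. A test against a 1.5-fold change (limma treat) likewise called 0, with the same probe set at an unadjusted p under 0.05.

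The CAT1 record probe set had log2 ratios of -1.03 and -0.85 in RL4452 replicates 1 and 3, against 0.92 and 0.53 in Domain replicates 1 and 3. Both RL4452 arrays lay below both Domain arrays, with 1.39 log2 units between the nearest arrays of the genotypes. The deposited ratios were 0.490 and 0.553 in RL4452, against 1.89 and 1.45 in Domain. The mean log2 ratio was -0.94 ± 0.12 in RL4452 and 0.73 ± 0.27 in Domain (SD, n = 2 each). The difference was -1.67 with SE 0.22, which is a signal 3.18-fold lower in RL4452 that did not pass the threshold (limma adjusted p = 0.120, unadjusted p = 0.000587). The 95% interval ran from -2.22 to -1.11, that is, from 4.67-fold to 2.16-fold lower. In whole seed, fewer cells of a type and less RNA per cell cannot be told apart. Whether the genotypes differ in sequence under this probe set was not tested.

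The 2 arrays of a genotype differed far less at this probe set than the genotypes did. The RL4452 arrays stood 0.17 apart and the Domain arrays 0.39 apart. Both RL4452 arrays lay below both Domain arrays for 15.5% of all probe sets, so the order alone is common. With a separation at least as wide as that of CAT1 the share was 0.34%, or 208 probe sets. By the size of the difference the probe set ranked 579th of 61179, and 0.946% of all probe sets differed at least as much in either direction. The median size over all probe sets was 0.17. By unadjusted p it ranked 298th. The largest p that was still called over all probe sets was 0.000138.

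The fluidics module of the array washer was shared by RL4452 replicate 1 and Domain replicate 3, and between them the CAT1 difference was -1.56. RL4452 replicate 3 differed from the other arrays in the ends of wheat control transcripts. The median 3′ minus 5′ log2 difference over 7 pairs was -0.22 and 0.40 in RL4452 replicates 1 and 3, against 0.00 and -0.0023 in Domain replicates 1 and 3. Without RL4452 replicate 3 the CAT1 difference was -1.76. The part of these transcript ends in the CAT1 value was not tested.

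**Figure D1:**
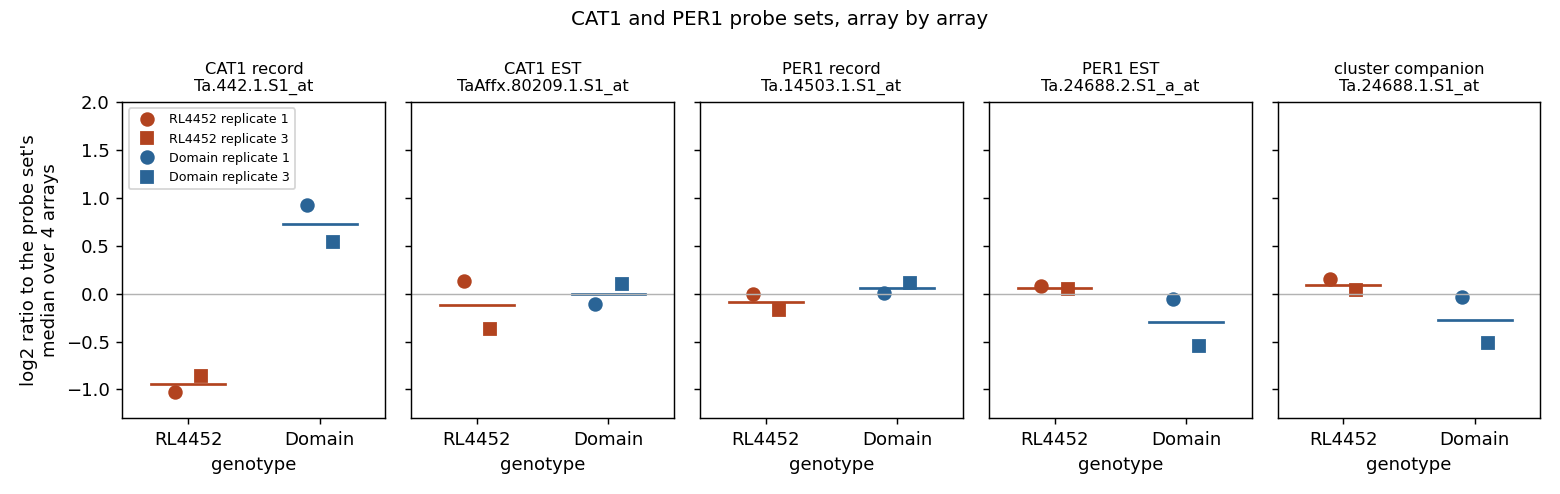
Log2 ratio to each probe set's median over 4 arrays (vertical axis) in RL4452 and Domain (horizontal axis), 1 panel per probe set. Circles are replicates 1, squares are replicates 3 and lines are genotype means (n = 2). Only in the panel of the CAT1 record probe set do the genotypes stand over 1 log2 unit apart.

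The CAT1 EST probe set had log2 ratios of 0.13 and -0.37 in RL4452 replicates 1 and 3, against -0.11 and 0.10 in Domain replicates 1 and 3. The genotypes overlapped, since the highest and the lowest value both came from RL4452. The means were -0.12 ± 0.36 in RL4452 and -0.0037 ± 0.15 in Domain (SD, n = 2 each). The difference was -0.11 with SE 0.24 and a 95% interval from -0.74 to 0.51 (limma adjusted p = 1.0). That interval includes 0 as well as a signal 1.67-fold lower or 1.42-fold higher in RL4452. Its sign rested on RL4452 replicate 3, without which the difference was 0.14.

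The intervals of the CAT1 probe sets did not overlap. To set both against each other, the log2 ratio of the EST probe set was subtracted from that of the record probe set within each array. This gave -1.16 and -0.49 in RL4452 replicates 1 and 3, against 1.03 and 0.43 in Domain replicates 1 and 3. The RL4452 arrays were on the negative and the Domain arrays on the positive side. Each probe set is centred on its own median, so these signs add nothing to the difference between genotypes. The genotype difference of these values was -1.55 (exact permutation test, two-sided p = 0.333, the smallest that 2 arrays against 2 allow). It ran from -1.89 to -1.21 when each array was left out in turn.

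Disagreement of this size between probe sets of a gene was uncommon on the array. Of 298 listed genes with several probe sets, 7 (2.35%), CAT1 among them, held a pair whose genotype differences stood at least as far apart. The median over these genes of the widest gap was 0.32. Genes with many probe sets have more pairs to choose from than CAT1, which has 1 pair. Which genome copy each CAT1 probe set reads was not tested.

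The PER1 record probe set had log2 ratios of -0.0087 and -0.17 in RL4452 replicates 1 and 3, against 0.0086 and 0.11 in Domain replicates 1 and 3. Both RL4452 arrays lay below both Domain arrays, but the nearest arrays stood only 0.017 apart. The means were -0.088 ± 0.11 in RL4452 and 0.060 ± 0.072 in Domain (SD, n = 2 each). The difference was -0.15 with SE 0.18 and a 95% interval from -0.61 to 0.31 (limma adjusted p = 0.991). That interval ran from a signal 1.53-fold lower to one 1.24-fold higher in RL4452. Whether this probe set read above background could not be checked, since the ratios hold no absolute level. Of all probe sets, 54.9% differed at least as much.

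The PER1 EST probe set had log2 ratios of 0.075 and 0.052 in RL4452 replicates 1 and 3, against -0.054 and -0.55 in Domain replicates 1 and 3. Both RL4452 arrays lay above both Domain arrays, and Domain replicate 3 stood apart as the low one. The means were 0.063 ± 0.016 in RL4452 and -0.30 ± 0.35 in Domain (SD, n = 2 each). The difference was 0.36 with SE 0.23 and a 95% interval from -0.23 to 0.96 (limma adjusted p = 0.964). Leaving out Domain replicate 1 gave 0.61, and leaving out Domain replicate 3 gave 0.12. The Domain arrays differed from each other by 0.49, which is more than the genotype means did.

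The companion in the transcript cluster was low in the same array. It had log2 ratios of 0.16 and 0.033 in RL4452 replicates 1 and 3, against -0.034 and -0.52 in Domain replicates 1 and 3. Its difference was 0.37 with SE 0.23 (limma adjusted p = 0.964). Leaving out Domain replicate 1 gave 0.61, and leaving out Domain replicate 3 gave 0.13. In no array did both probe sets of the cluster differ by more than 0.081. Only 27 of the 61178 other probe sets lay nearer to the PER1 EST probe set over the 4 arrays (0.0441%). The probe sets of a cluster may share transcripts, so this may be a repeat of 1 reading and is not counted as a second one. The clusters of both CAT1 probe sets and of the PER1 record probe set held no other probe set.

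The differences of the PER1 record and EST probe sets had opposite signs, and neither passed. Their differences stood 0.51 apart, and 27.2% of the 298 genes with several probe sets held a pair at least as far apart. Of the 4 CAT1 and PER1 probe sets, 3 had genotypes that did not overlap (2 lower and 1 higher in RL4452), against 32.4% of all probe sets (15.5% lower and 17.0% higher). Of those 3, the separation was over 0.11 log2 units for the CAT1 record probe set alone.

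**Figure D2:**
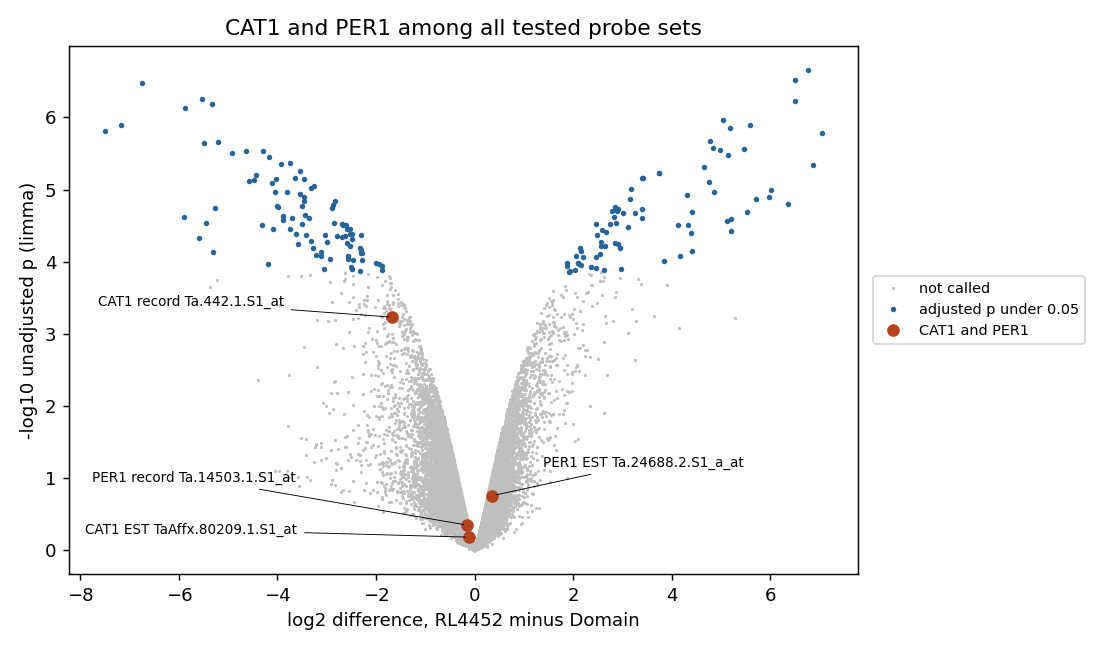
Log2 difference, RL4452 minus Domain (horizontal axis), and -log10 of the unadjusted limma p (vertical axis) for 61179 probe sets. Blue points are the 171 called probe sets and red points are CAT1 and PER1. The CAT1 record probe set lies at -1.67, below the called points, and the other 3 red points lie between -0.15 and 0.36.

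The other antioxidant and redox genes with a readable name set these values in context. The list held 14 probe sets of 6 genes, CAT1 and PER1 included. In limma 0 were called in either direction (background 0.28%), and 2 had an unadjusted p under 0.05 (background 5.85%). The median difference was -0.18, with 12 probe sets lower and 2 higher in RL4452, against a median of 0.010 and 48.0% lower over all probe sets. Without the CAT1 and PER1 probe sets the median was -0.22 over 10 probe sets of 4 genes. Leaving out RL4452 replicate 1 gave a list median of -0.40, and leaving out RL4452 replicate 3 gave -0.027.

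The gene lgul (LOC542984), named for lactoylglutathione lyase, the glyoxalase that starts the removal of methylglyoxal with glutathione, was the other one with an unadjusted p under 0.05. The lower lgul probe set had log2 ratios of -0.58 and -0.34 in RL4452 replicates 1 and 3, against 1.02 and 0.28 in Domain replicates 1 and 3. The RL4452 arrays lay below the Domain arrays, and the Domain arrays were far apart. The difference was -1.11 with SE 0.30 (limma adjusted p = 0.580, unadjusted p = 0.0141). The other lgul probe set had -0.37, and its genotypes overlapped.

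The remaining redox genes had smaller differences, none of which passed. Prx1 (LOC606328) carries a symbol used for peroxidases as well as peroxiredoxins, and its 4 probe sets ran from -0.33 to -0.060. The smallest p of these belonged to the probe set at -0.32 with SE 0.18 (limma adjusted p = 0.957). Trx-M (LOC542973), an m-type thioredoxin, which is a plastid protein that reduces disulphides, had -0.21 with SE 0.35. GSTZ1 (LOC543412), a zeta-class glutathione transferase, had differences of -0.15, -0.0086 and 0.24 at its 3 probe sets, of which the last had the smallest p (limma adjusted p = 0.972).

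Several redox probe sets were lowest in 1 array. Of the 14, 8 had their lowest value in RL4452 replicate 3, against 26.2% of all probe sets. The CAT1 EST and the PER1 record probe set were among them, while the CAT1 record probe set was lowest in RL4452 replicate 1. RL4452 replicate 3 is also the array with the raised 3′ to 5′ difference of control transcripts, whose part in these values was not tested.

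**Figure D3:**
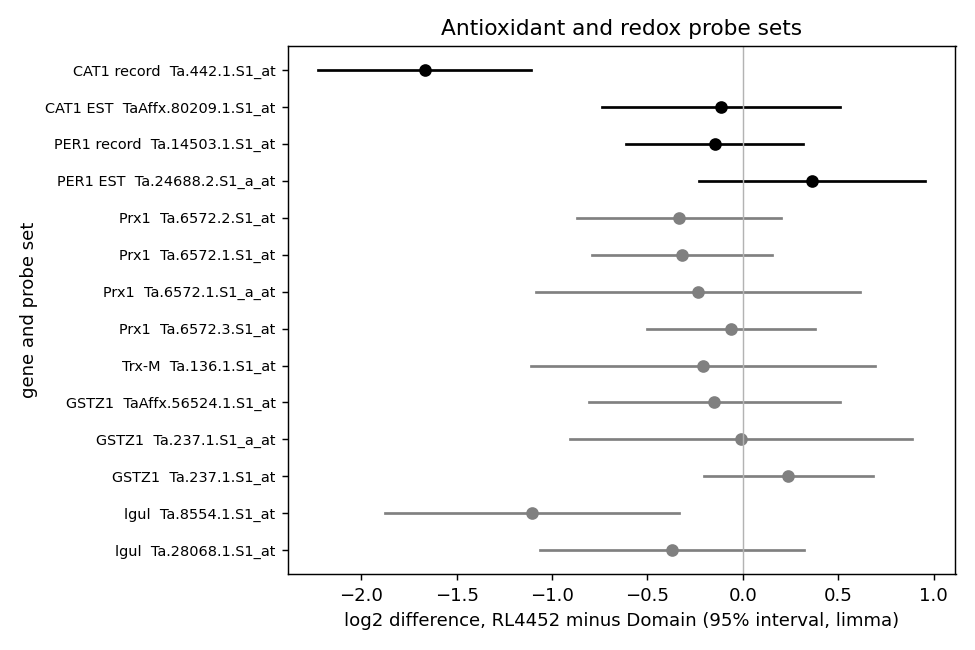
Log2 difference, RL4452 minus Domain, with its 95% interval from limma (horizontal axis) for the 14 probe sets of the antioxidant and redox list (vertical axis). Black marks CAT1 and PER1 and grey the other genes. The interval of the CAT1 record probe set, from -2.22 to -1.11, and that of the lower lgul probe set, from -1.88 to -0.34, lie below 0, and the other 12 include 0.

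Markers of seed tissues are given beside the CAT1 value. Starchy endosperm genes (24 probe sets of 13 genes) had a median difference of -0.90, and of -0.66 with 1 probe set per gene. Of the 24 probe sets, 21 were lower and 3 higher in RL4452, with 0 called in limma (9 at an unadjusted p under 0.05). Over all probe sets 48.0% were lower, 0.28% were called and 5.85% had an unadjusted p under 0.05. Their median log2 ratios were -0.15 and -0.18 in RL4452 replicates 1 and 3, against 0.078 and 1.16 in Domain replicates 1 and 3. Leaving out Domain replicate 3 gave a list median of -0.16, and leaving out Domain replicate 1 gave -1.66. The CAT1 record probe set was higher in Domain replicate 1 than in replicate 3, and its difference was -1.86 without Domain replicate 3. The list's smallest p belonged to the granule-bound starch synthase gene Wx-A1 (LOC543395), which makes amylose, at 2.39 (limma adjusted p = 0.0992).

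Aleurone and embryo genes (12 probe sets of 6 genes), the tissues known for PER1 in barley, had a median difference of -0.049. In RL4452 7 were lower and 5 higher, and 0 were at an unadjusted p under 0.05. Their median was 0.22 without Domain replicate 3 and 0.021 with 1 probe set per gene. It was -0.16, -0.031 and -0.13 with Domain replicate 1, RL4452 replicate 1 and RL4452 replicate 3 left out in turn. The smallest p belonged to the lipid transfer protein gene LTP3 (LOC543095), at 0.23 (limma adjusted p = 0.975). Green tissue genes (31 probe sets of 3 genes) had 13 lower and 18 higher, with a median difference of 0.024, and of -0.11 with 1 probe set per gene. Leaving out RL4452 replicate 3 gave -0.023, Domain replicate 1 -0.0048 and Domain replicate 3 0.0063. The smallest p there belonged to 1 probe set of the large Rubisco subunit gene rbcL (LOC100049018), at -0.54 (limma adjusted p = 0.813). The other rbcL probe sets went both ways, from -0.48 to 0.44. Histone genes of dividing cells (18 probe sets of 5 genes) had 4 lower and 14 higher, with a median difference of 0.085, and of 0.18 with 1 probe set per gene. Leaving out RL4452 replicate 1 gave 0.14, RL4452 replicate 3 0.021 and Domain replicate 3 0.036. The smallest p of these was that of the histone gene H2A-9 (LOC732714), at 0.39 (limma adjusted p = 0.907). None of these 3 lists had a called probe set.

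The heat-shock gene hsp16.9A (LOC543277), whose product is a small chaperone, had log2 ratios of -0.75 and -0.63 in RL4452 replicates 1 and 3, against 6.28 and 0.44 in Domain replicates 1 and 3 (limma adjusted p = 0.911). It was thus far higher in Domain replicate 1 than in the other arrays. The CAT1 record probe set was highest in Domain replicate 1 too, as were 22.7% of all probe sets. Its difference was -1.47 without that array. The part of these marker lists in the CAT1 value was not tested.

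Listed genes with the most similar pattern were found by the Euclidean distance of log2 ratios over the 4 arrays, among 1269 probe sets. The nearest to the CAT1 record probe set belonged to LOC542972, at a distance of 0.50, with log2 ratios of -1.02 and -0.71 in RL4452 and 0.48 and 0.71 in Domain. It was followed by probe sets of LOC543111 (0.53), LOC542970 (0.55), LOC543111 again (0.57) and LOC542820 (0.59). Their differences ran from -1.59 to -1.29, and limma adjusted p from 0.128 to 0.395. Among the probe sets without a listed gene, 99 were nearer than that of LOC542972.

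The other probe sets stayed near their medians, where many features lie close together. The nearest to the PER1 record probe set were probe sets of APRT (LOC543227), an adenine phosphoribosyltransferase, at 0.029, of the gamma-gliadin gene LOC543214 at 0.043 and of LOC606373 at 0.046. The nearest to the PER1 EST probe set were those of LOC542813 at 0.071, of the xylanase inhibitor gene XIP-I (LOC542997) at 0.084 and of LOC780585 at 0.13. These 3 had their lowest value in Domain replicate 3, which choosing by nearness to this probe set favours. The nearest to the CAT1 EST probe set were those of LOC100049049 at 0.050, LOC542844 at 0.084 and LOC100049032 at 0.095. Their lowest value was in RL4452 replicate 3, which the choice by nearness likewise favours.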

How the data were processed

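The values deposited by the authors are linear ratios. RMA is named per the submitters' processing notes, while its version and the step behind the ratios are not given in the sources used. The median of the 4 arrays was within 0.002 of 1 for 99.5% of 61290 features. Scanner setting files, another kind of deposited record, were read by their file headers for fluidics module and hybridization order, with no score or other measurement used. The ratios hold no background level, and precision is limited by how many arrays there were.

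Ratios were log2-transformed, and 111 AFFX controls were left out. RL4452 was compared with Domain on 61179 probe sets with limma 3.58.1 under R 4.3.3. The fit used lmFit, then eBayes, with genotype only, two-sided, 2.99 prior degrees of freedom and Benjamini-Hochberg over all probe sets. The test was tried on simulated data drawn from its own model, so that trial does not check the model on these arrays. Intervals are 95%. Tables came from pandas 2.3.3, numpy 2.4.6 and scipy 1.17.1 in Python 3.11.15, and figures from matplotlib 3.10.9.

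Names were taken from the array annotation (1273 probe sets, 1272 found in the gene table of IWGSC CS RefSeq v2.1). Records and ESTs were told apart by the prefix of the annotation's sequence accession alone, with CA taken as an EST and any other prefix as a record. All CAT1 and PER1 probe sets, their cluster companions, the redox genes, the smallest p of each other list and the nearest patterns (5 for the CAT1 record probe set, 3 for the others) are named by rule. Members and lists were chosen with earlier results of these data known. The lists' patterns were respelled to the tables' short symbols, and Prx1 was added, after the names had been seen. The alternatives were each array left out, quantile normalization, median-centring, a replicate block, a robust prior, treat, 1 module and 1 probe set per gene.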

Additional observations from a re-analysis of the deposited data

How the results depend on the processing

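No alternative brought a CAT1 or PER1 probe set past the threshold. For the CAT1 record probe set, limma adjusted p ran from 0.123 to 0.476 over quantile normalization (-1.57), median-centring, the replicate block, the robust prior and each array left out. With arrays left out in turn the differences ran from -1.86 to -1.47 for it, -0.37 to 0.14 for the CAT1 EST probe set, -0.23 to -0.069 for the PER1 record probe set and 0.12 to 0.61 for the PER1 EST probe set. A lone array is there taken to vary as the paired ones do. Between the arrays on 1 fluidics module the PER1 EST probe set had 0.62.

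Over all probe sets, limma called 0 with a replicate block (4555 at an unadjusted p under 0.05), without Domain replicate 1 (3292) and without Domain replicate 3 (3418). It called 101 without RL4452 replicate 1 and 128 without RL4452 replicate 3, so that leaving out an array gave 0 to 128 calls. The labels do not say that a replicate number marks a shared field block, and with 2 pairs the pairing could not be checked. No 2 arrays were hybridised on the same day, and both replicates 1 came before both replicates 3. Within each replicate number Domain was hybridised before RL4452, and the part of this order in the genotype differences was not tested. Quantile normalization gave 141 calls, median-centring 167, the robust prior 171 and treat 124. Of 57 values for the lists and the cluster companion, 46 moved by less than the spread between replicates or kept their side of the threshold. The heat-shock list has 1 probe set, so leaving out an array could not move it past that spread. Its difference still ran from -6.97 to -1.13. The companion was judged by its sign and the threshold alone, so the count does not measure how steady these values were. The list without CAT1 and PER1 was added after seeing the data.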
